A study of Mus musculus with 15 samples.

Results

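Interferon-stimulated genes are the genes that cells switch on after they sense interferon, and 39 of them, chosen by name from the 51826 genes of the deposited tables, are described here in mammary tumors and glands of mice. The tables hold TPM, a transcript level scaled to transcript length and to the library, so that every library sums to the same total. The groups were 3 Trim24COE carcinosarcomas (mice 64, 567 and 897), 3 Trim24COE carcinomas (mice 89, 273_5 and 3956), 4 control mammary glands (mice 133, 392, 417_3 and 517_3) and 3 non-TRIM24 tumors (mice 219, FVB001 and FVB002). The classes are those of the sample labels. In the paper's tumor list the pathologists disagreed on mice 89 and 3956, each read as carcinosarcoma and as carcinoma. The list also holds a call made from RNA-seq, which is carcinoma for mouse 89. The classes may therefore rest in part on expression and are not an independent grouping. Mouse 567 was read as spindle cell carcinoma and as carcinosarcoma. Mouse 133 and mouse 3956 each had a second library in sequencing batch 2, which also held the non-TRIM24 tumors, so batch 2 shared no other mouse with batch 1.

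Trim24COE mice carry a Flag-tagged mouse Trim24 transgene, kept silent by a floxed stop cassette and released by MMTV-Cre, which acts mainly in mammary epithelium. The transgene was a piggyBac insertion, and its site was mapped in progeny of a single founder. The control glands express MMTV-Cre without the transgene, so the Cre is shared by these groups, and they came from age-matched females. The genetic background is FVB, given as FVB/129 for the controls in the series description. The genotype of the non-TRIM24 tumors, which arose spontaneously, is given as unknown. The paper places these tumors in either FVB or FVB/129 mice, without saying which tumor came from which strain. No treatment was applied. All samples were whole tissue, in which fewer cells of a type and less RNA per cell cannot be told apart.

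Type I interferons bind the receptor chains IFNAR1 and IFNAR2, and the kinases JAK1 and TYK2 then activate STAT proteins, among them STAT2, which join IRF9 to form the factor ISGF3. ISGF3 binds an interferon-stimulated response element in the promoters of antiviral genes, while interferon gamma raises guanylate-binding proteins and chemokines more strongly. TRIM24 is a chromatin reader and nuclear receptor co-regulator that has been described as a repressor of interferon and STAT genes in the mouse liver.

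Promoter sequences are shown for 5 members because the results turn on them (Apol9a, Apol9b, Oas1a) or because they stand for the ISG15 and guanylate-binding protein groups (Isg15, Gbp2). They are RefSeq sequences on build GRCm38.p6, read 5′ to 3′ on the gene's strand and ending at or shortly before the start site. Capitals mark GAAANNGAAA or its reverse complement TTTCNNTTTC, the core of the interferon-stimulated response element, where neighbouring matches overlap. The Apol9a stretch is chr15:77411106-77411230 on the minus strand and that of Apol9b is chr15:77728922-77729068 on the plus strand. Those of Isg15 (chr4:156200819-156200968, minus), Oas1a (chr5:120907526-120907675, minus) and Gbp2 (chr3:142620513-142620631, plus) follow.
Apol9a: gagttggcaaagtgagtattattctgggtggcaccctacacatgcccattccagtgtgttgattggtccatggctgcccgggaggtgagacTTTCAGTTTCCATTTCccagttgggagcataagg
Apol9b: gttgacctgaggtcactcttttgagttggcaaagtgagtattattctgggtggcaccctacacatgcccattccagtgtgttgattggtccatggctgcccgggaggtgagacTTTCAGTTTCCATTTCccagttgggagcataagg
Isg15: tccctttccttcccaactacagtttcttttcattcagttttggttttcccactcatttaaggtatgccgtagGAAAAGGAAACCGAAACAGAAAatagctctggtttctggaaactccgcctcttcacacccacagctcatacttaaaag
Oas1a: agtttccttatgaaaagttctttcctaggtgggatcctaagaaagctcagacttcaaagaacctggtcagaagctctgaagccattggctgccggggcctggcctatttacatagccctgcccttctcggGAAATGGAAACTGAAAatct
Gbp2: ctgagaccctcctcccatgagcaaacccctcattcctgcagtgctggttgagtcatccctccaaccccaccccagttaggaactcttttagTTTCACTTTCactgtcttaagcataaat
The capitals begin 78 bases before the RefSeq start of Isg15, 20 before that of Oas1a and 59 before that of Gbp2. For Apol9a and Apol9b they begin 59 and 37 bases before the nearer RefSeq start. Each of these 2 genes has a further RefSeq start, from which the capitals lie farther upstream. The 300-base windows of Apol9a and Apol9b share an unbroken identical run of 278 bases. Reads of these near-identical neighbours on chromosome 15 can be split between them by the abundance estimate, and the same holds for Ifit3 and Ifit3b, so the single values of each pair are uncertain. Windows of 300 bases (250 before and 50 after the start) were at hand for 29 of the 39 members, and 17 of these 29 (58.6%) held the motif on either strand, against 3.99% of all 27025 genes with a window. The palindromic motif TTCNNNGAA, bound by STAT dimers, was in 6 of the 29 members (20.7%) and in 9.55% of all genes. A match describes the letters only.

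In the libraries labelled Trim24COE the total Trim24 mRNA, transgene and endogenous together, was not higher than in the glands: the tumors held 10.6 to 24.1 TPM and the glands 14.5 to 22.4 TPM (log2 fold change -0.24 ± 0.26 SE, limma adjusted p = 0.557). By qRT-PCR, the paper reports Trim24 as highly expressed in Trim24COE tumors relative to Cre-only glands. By immunohistochemistry it reports overexpressed TRIM24 and Flag protein in such tumors. Why the TPM values differ from this was not tested. Several libraries stood apart in their tissue make-up. The summed TPM of 8 adipocyte markers was 20600 and 27100 in glands 133 and 392 but 1730 and 1910 in glands 417_3 and 517_3, and these pairs are called fat-rich and fat-poor glands below. Among the tumors it was 93.8 to 1040 in the 6 Trim24COE tumors and 139 in non-TRIM24 tumor 219, but 38300 in FVB001 and 18000 in FVB002, 2 libraries labelled as tumors. FVB001 also had only 538 TPM of 8 epithelial markers, against 5550 in 219. FVB002 lay between 219 and FVB001 in 30 of the 39 members (76.9%) and in 62.5% of the 15481 genes at 1 TPM or more in any of these 3 libraries. The repeat libraries of mice 133 and 3956 differed from the first by a median of 0.21 and 0.29 log2 units over the members, and no member differed by over 2-fold.

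Tumors of one class lay far apart in the levels of the interferon-stimulated genes. The median over the 39 members of log2(TPM + 1), written here as the member median, was 3.61 to 4.04 in the 4 glands. Carcinoma 89 (5.79) and carcinoma 273_5 (5.61) stood far above the glands, as did non-TRIM24 tumors 219 (5.66) and FVB002 (5.36). Carcinoma 3956 (3.88), carcinosarcoma 567 (3.79) and FVB001 (3.30) lay at or below the gland range, carcinosarcoma 64 reached 4.25, and carcinosarcoma 897 was the lowest of all at 3.18. Carcinoma 89 exceeded all 4 glands in 35 members and 273_5 in 30, whereas 3956 did so in 8. The share of all genes above all glands was not counted for single libraries, so these counts have no background. Carcinomas 89 and 273_5 were the highest pair of the 6 Trim24COE tumors in 32 of the 39 members (82.1%), and in 14.1% of the 17133 genes at 1 TPM or more in any of these tumors.

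**Figure D1:**
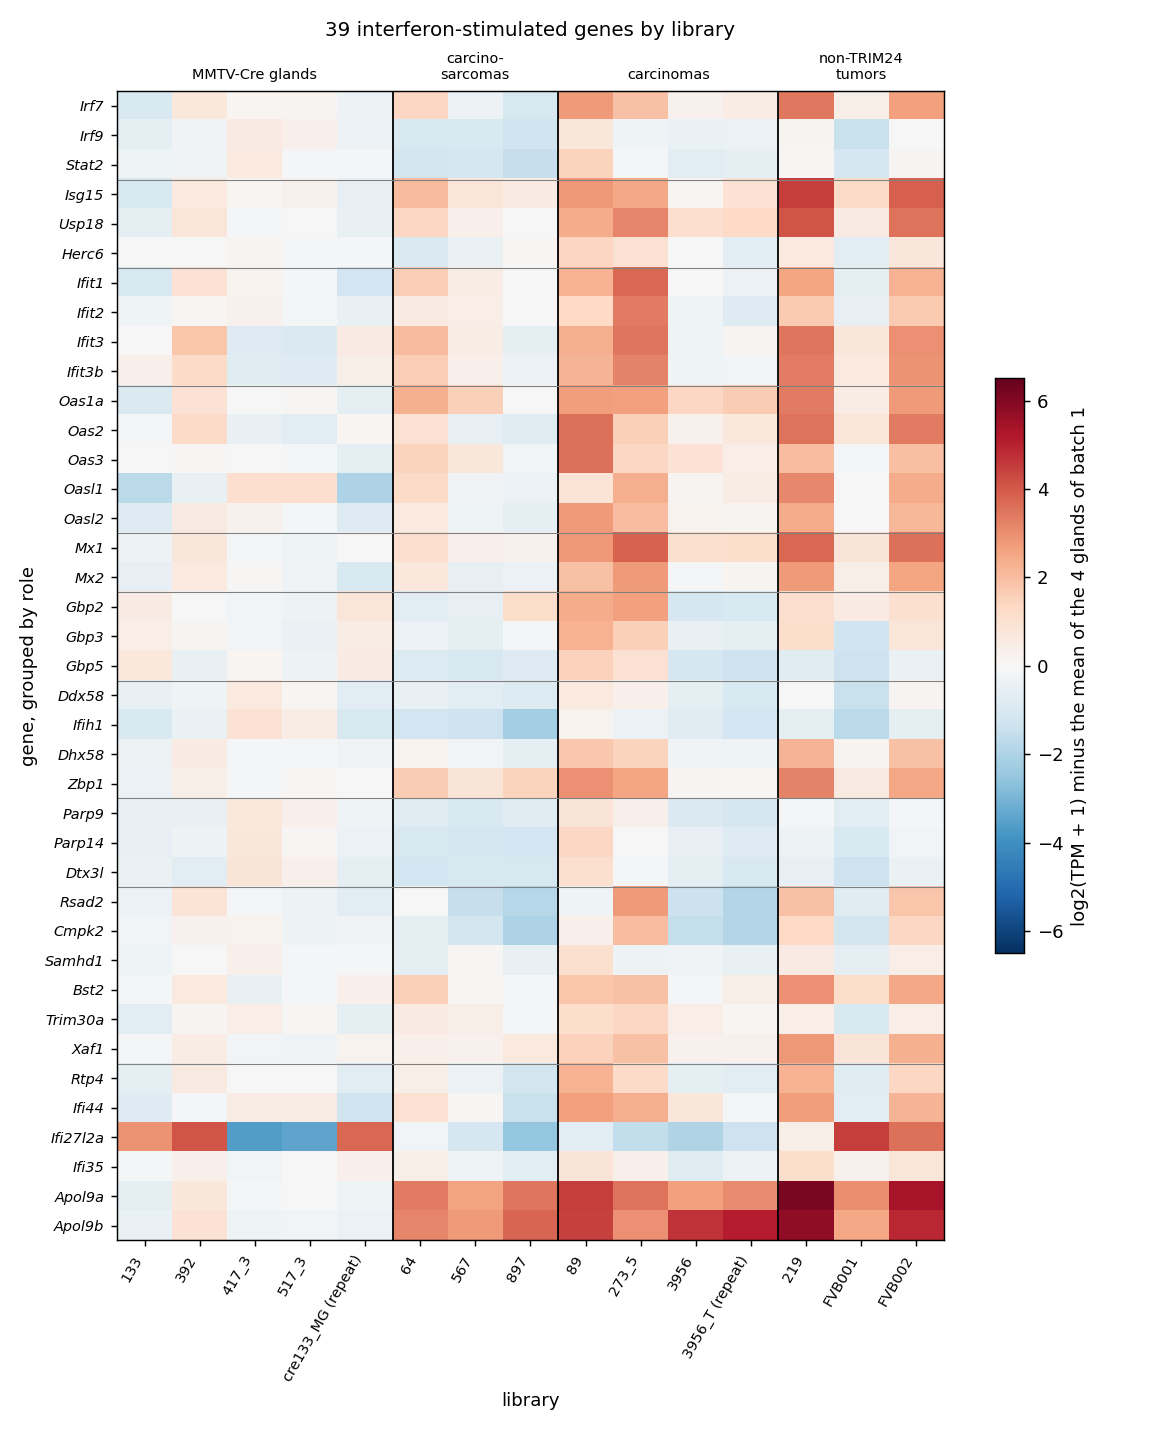
Heat map of 39 interferon-stimulated genes (rows, grouped by role) in 15 libraries (columns); color gives log2(TPM + 1) minus the mean of the 4 glands of batch 1. Carcinomas 89 and 273_5 and non-TRIM24 tumors 219 and FVB002 are red in most rows, Apol9a and Apol9b are red in every tumor, and Ifi27l2a is high in the fat-rich libraries.

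The first question was whether Trim24COE tumors as a whole differed from the control glands. In limma's test of the 6 tumors against the 4 glands, with Benjamini-Hochberg adjustment over 15196 genes, 4 of the 39 members were higher (10.3%) and 0 lower at an adjusted p under 0.05. Of all genes tested, 7.96% were called higher and 9.13% lower, so the share of members called was near the background. At an unadjusted p under 0.05, 9 members were higher and 0 lower, against 15.7% and 16.9% of all genes. The members called were Apol9a, Apol9b, Oas1a and Zbp1. The median log2 fold change of the 39 members was 0.68, against -0.04 over all genes tested, and 26 of the 39 were positive.

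Apol9a and Apol9b, which encode apolipoprotein L family proteins, had the clearest difference. Apol9a was at 41.8, 24.4 and 45.2 TPM in carcinosarcomas 64, 567 and 897 and at 94.5, 47.8 and 25.8 TPM in carcinomas 89, 273_5 and 3956. In glands 133, 392, 417_3 and 517_3 it was at 1.69, 5.87, 2.82 and 3.3 TPM. Every Trim24COE tumor lay above every gland (log2 fold change 3.36 ± 0.39 SE, limma adjusted p = 0.000515), and the gap was wider than the range of the glands. Apol9b was at 32.5, 24.5 and 50.9 TPM in the carcinosarcomas and at 79.9, 28.4 and 94.3 TPM in the carcinomas, in the same order of mice. The glands held 1.74, 6.0, 2.01 and 2.28 TPM of Apol9b (log2 fold change 3.65 ± 0.44 SE, limma adjusted p = 0.000581). Apol9b was highest in carcinoma 3956, and its repeat library held 124.5 TPM. Exact permutation tests of the difference in means gave p = 0.00952 for each of the pair, the smallest that 6 against 4 samples allow in a two-sided test (0.0619 after adjustment over the 13 members tested this way). Apol9a and Apol9b were the 2 members (5.13%) whose tumors and glands did not overlap, against 7.39% of all genes that were higher without overlap, and 0 members were lower without overlap, against 7.2% of all genes.

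Zbp1, a sensor of Z-form nucleic acids, was at 48.9, 27.1 and 41.4 TPM in carcinosarcomas 64, 567 and 897 and at 124.4, 92.6 and 16.6 TPM in carcinomas 89, 273_5 and 3956. The glands held 11.2, 19.3, 14.1 and 15.5 TPM of Zbp1, and only carcinoma 3956 fell into their range (log2 fold change 1.61 ± 0.49 SE, limma adjusted p = 0.045, exact permutation p = 0.019, or 0.0823 adjusted over the 13 members). Oas1a encodes an oligoadenylate synthetase, an enzyme that activates RNase L on sensing double-stranded RNA. It was at 43.9, 24.9 and 7.94 TPM in the carcinosarcomas, at 56.9, 55.0 and 22.1 TPM in the carcinomas and at 3.68, 15.8, 7.69 and 8.30 TPM in the glands. Only carcinosarcoma 897 overlapped the glands (log2 fold change 1.76 ± 0.54 SE, limma adjusted p = 0.044, exact permutation p = 0.0286, or 0.093 adjusted over the 13 members). Zbp1 and Oas1a each stayed past the limma threshold in 2 of 10 fits that left out 1 mouse, Zbp1 without 567 or 3956 and Oas1a without 897 or 392. Without any other mouse the adjusted p was 0.0552 to 0.108 for Zbp1 and 0.0568 to 0.12 for Oas1a, the highest of each without gland 133.

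**Figure D2:**
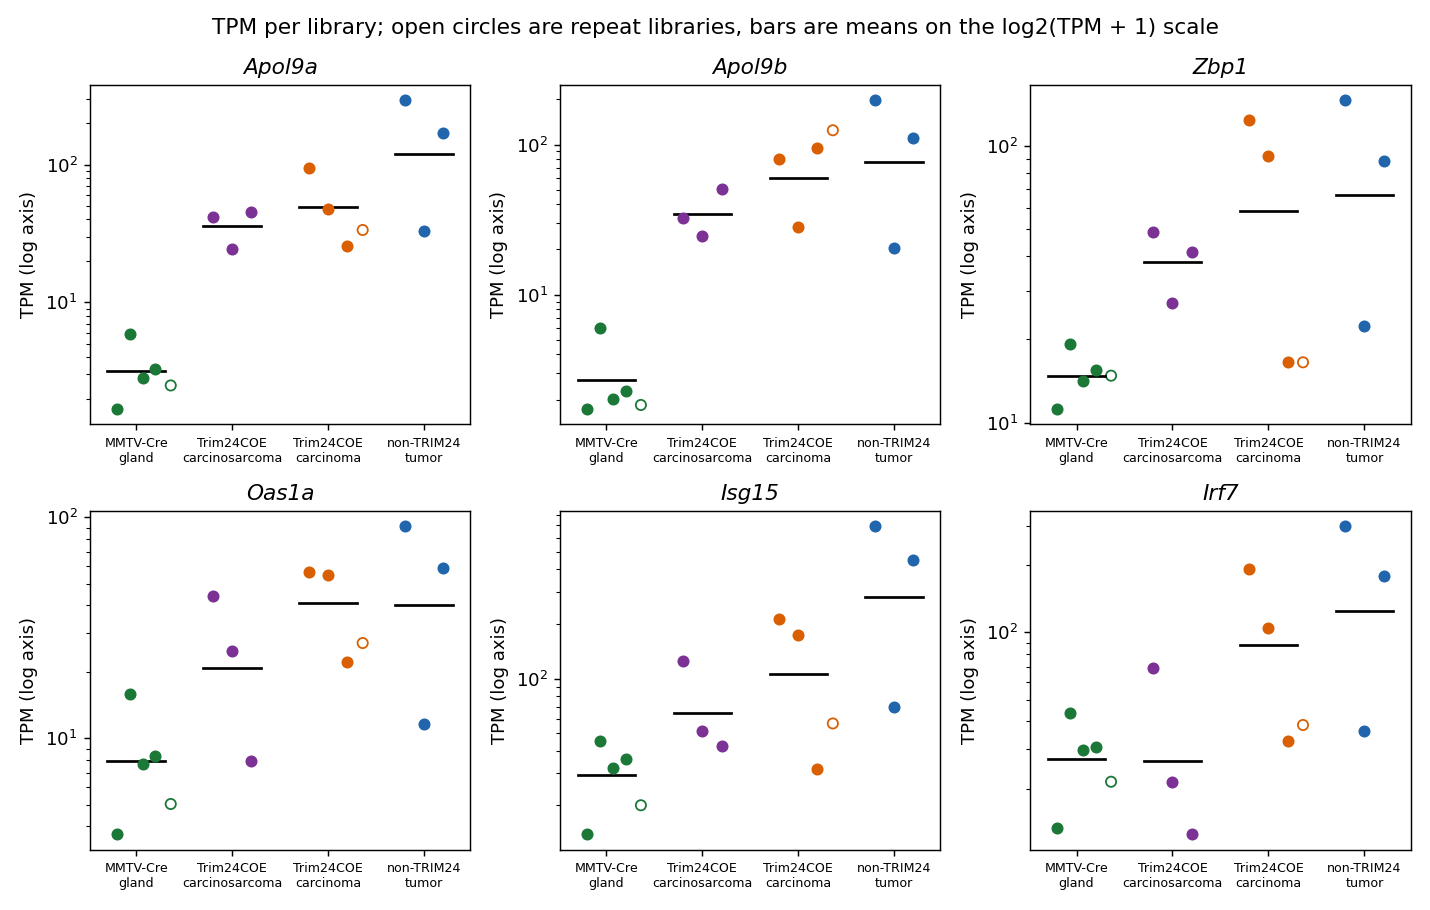
TPM (log axis) of 6 members in each library by group; filled circles are first libraries, open circles the repeat libraries of mice 133 and 3956, and bars the means on the log2(TPM + 1) scale. Apol9a and Apol9b are higher in all 6 Trim24COE tumors than in all 4 glands, while Isg15 and Irf7 overlap.

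The other members did not pass the threshold in this comparison. Among the transcription factors, Irf7, the factor that amplifies type I interferon production, was at 69.4, 21.4 and 12.5 TPM in carcinosarcomas 64, 567 and 897, at 191.5, 105.0 and 32.8 TPM in carcinomas 89, 273_5 and 3956 and at 13.3, 43.6, 29.8 and 30.5 TPM in the glands. Its groups overlapped (log2 fold change 0.82, limma adjusted p = 0.434). Isg15, the ubiquitin-like modifier, was at 124.4, 51.7 and 42.4 TPM in the carcinosarcomas, at 214.2, 174.1 and 31.6 TPM in the carcinomas and at 13.9, 45.4, 32.4 and 35.9 TPM in the glands. Carcinoma 3956 and carcinosarcoma 897 kept the groups from separating (log2 fold change 1.47, limma adjusted p = 0.0954, exact permutation p = 0.0667). Usp18, which removes ISG15 from proteins and restrains the receptor, and Herc6, the mouse ISG15 ligase, had log2 fold changes of 1.40 and 0.19.

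The IFIT proteins bind foreign RNA. Ifit3 was at 55.9, 17.8 and 8.05 TPM in carcinosarcomas 64, 567 and 897, at 67.5, 150.4 and 10.3 TPM in carcinomas 89, 273_5 and 3956 and at 12.3, 45.9, 6.52 and 6.16 TPM in the glands. The 4 IFIT members had log2 fold changes of 0.89 to 1.34 with a smallest limma adjusted p of 0.22. Oasl2, of the oligoadenylate synthetase family, was at 33.4, 17.1 and 13.4 TPM in the carcinosarcomas, at 149.6, 86.8 and 24.7 TPM in the carcinomas and at 11.4, 32.2, 26.1 and 19.98 TPM in the glands. Apart from Oas1a, the log2 fold changes of this family ran from 0.68 (Oasl1) to 1.31 (Oas3).

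The MX proteins are dynamin-like GTPases that block viral nucleocapsids. Mx2 was at 5.43, 1.70 and 2.04 TPM in carcinosarcomas 64, 567 and 897, at 13.6, 25.9 and 2.67 TPM in carcinomas 89, 273_5 and 3956 and at 1.76, 5.21, 3.12 and 2.42 TPM in the glands. Its log2 fold change was 0.72, and that of Mx1 was 1.57 (limma adjusted p = 0.129).

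Guanylate-binding proteins coat intracellular pathogens and respond strongly to interferon gamma. Gbp2 was at 21.2, 24.3 and 82.3 TPM in carcinosarcomas 64, 567 and 897, at 193.2, 228.9 and 16.2 TPM in carcinomas 89, 273_5 and 3956 and at 51.2, 35.2, 31.6 and 27.8 TPM in the glands. Carcinoma 3956 and 2 carcinosarcomas were below every gland while 3 tumors were above every gland (log2 fold change 0.66, limma adjusted p = 0.576). Parp9, an ADP-ribosyltransferase that works with the ubiquitin ligase DTX3L, was at 22.3, 19.4 and 22.2 TPM in the carcinosarcomas, at 69.8, 48.9 and 20.3 TPM in the carcinomas and at 27.1, 28.2, 63.2 and 48.9 TPM in the glands. Its log2 fold change was -0.39, and those of Parp14 and Dtx3l were -0.42 and -0.51. Bst2 (tetherin), which holds budding virions at the cell surface, was at 348.2, 132.7 and 110.9 TPM in the carcinosarcomas, at 420.2, 443.7 and 111.0 TPM in the carcinomas and at 111.8, 188.3, 86.1 and 112.1 TPM in the glands. Its log2 fold change was 0.86 (limma adjusted p = 0.229), and that of the other antiviral effectors ran from -0.51 (Cmpk2) to 0.82 (Xaf1).

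Ifi27l2a, a small mitochondrial protein gene on chromosome 12 and the most abundant member, was high in the libraries with high adipocyte markers. It was at 3496 and 7926 TPM in the fat-rich glands 133 and 392 but at 36.3 and 42.4 TPM in the fat-poor glands 417_3 and 517_3. The carcinosarcomas 64, 567 and 897 held 408.0, 215.6 and 79.9 TPM and the carcinomas 89, 273_5 and 3956 held 289.6, 148.6 and 118.9 TPM, so every Trim24COE tumor lay between the gland pairs. Tumors FVB001 and FVB002, with gland-like adipocyte markers, held 10220 and 5414 TPM of Ifi27l2a, while 219 held 592.6 TPM. Against all 4 glands its log2 fold change was -1.33 ± 1.42 SE (limma adjusted p = 0.553). Against the fat-rich glands alone the 6 tumors were lower, with a log2 fold change of -4.85 (limma adjusted p = 0.00158), and against the fat-poor glands alone they were higher by 2.19 (limma adjusted p = 0.0282). These splits were chosen after the adipocyte markers were seen. Whether adipocytes carry Ifi27l2a in these tissues was not tested.

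**Figure D3:**
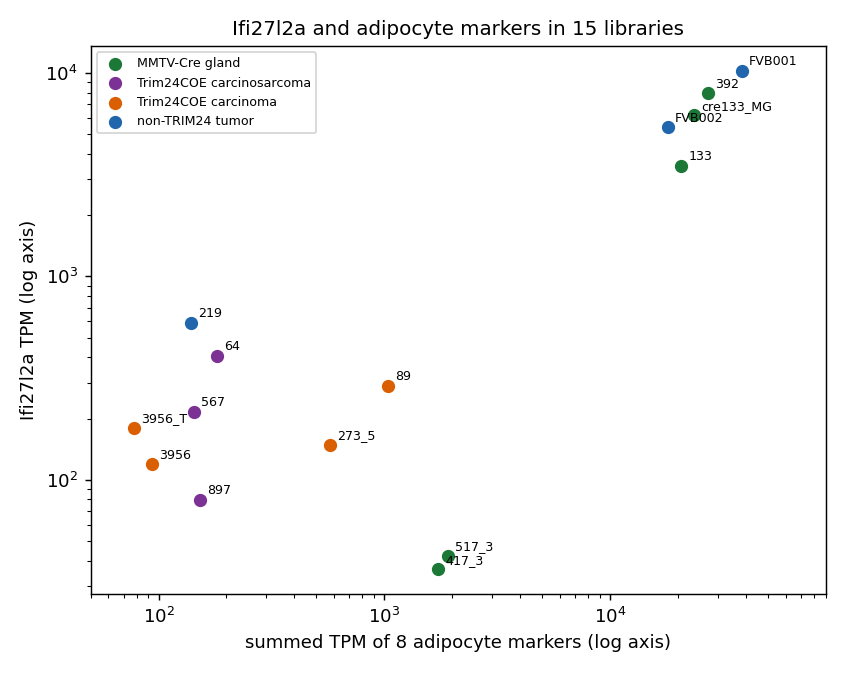
Ifi27l2a TPM (vertical, log axis) against the summed TPM of 8 adipocyte markers (horizontal, log axis) in 15 libraries, colored by group. The 5 fat-rich libraries lie at the upper right with 3496 TPM or more, and the fat-poor glands 417_3 and 517_3 lie lowest at 36.3 and 42.4 TPM. The Trim24COE tumors lie between in Ifi27l2a, but their adipocyte sums, at most 1040 TPM, are below those of every gland (1730 TPM or more).

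The carcinosarcomas alone were set against the same 4 glands. In limma's test over 15287 genes, 3 members were higher (7.69%) and 4 lower (10.3%), with 9.83% of all genes called higher and 13.1% lower, so the members' share was below the background in both directions. At an unadjusted p under 0.05, 3 members were higher and 8 lower, against 15.9% and 21.7% of all genes. Apol9a (log2 fold change 3.14), Apol9b (3.25) and Zbp1 (1.31, limma adjusted p = 0.0181) were the higher members. The lower members were Stat2 and Irf9, subunits of ISGF3, Parp14, an ADP-ribosyltransferase, and Cmpk2, a mitochondrial nucleotide kinase. Stat2 ranged from 6.51 to 8.89 TPM in the carcinosarcomas and from 16.6 to 31.9 TPM in the glands, without overlap (log2 fold change -1.28 ± 0.30 SE, limma adjusted p = 0.0212). The log2 fold changes of Irf9, Parp14 and Cmpk2 were -1.08, -1.13 and -1.27, with limma adjusted p of 0.0439, 0.0481 and 0.0432.

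In 8 members (20.5%) all 3 carcinosarcomas were below all 4 glands, near the 21.6% of all genes (the 3 members called higher were above all glands, 7.69% against 15.4%): Irf9, Stat2, Gbp5, Ifih1, Parp9, Parp14, Dtx3l and Cmpk2. Of these 8, 6 (Irf9, Stat2, Ifih1, Parp9, Parp14 and Dtx3l) were also among the 9 members higher in both fat-poor than in both fat-rich glands. The share of all genes with that gland order was not counted. With the fat-poor glands left out, Stat2 stayed lower (log2 fold change -1.03, limma adjusted p = 0.0278), whereas Irf9 (0.0907), Parp14 (0.0675) and Cmpk2 (0.0698) did not pass. Cmpk2 passed in none of the 7 fits that left out 1 mouse, Irf9 and Parp14 in 1 each (without gland 133), and Stat2 lost the call without any 1 of the carcinosarcomas, with adjusted p up to 0.0759. Zbp1 lost its call without carcinosarcoma 64 (0.0906) or 897 (0.0618).

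The carcinomas alone gave 2 members higher (5.13%) and 0 lower, with 1.58% of the 15479 genes called higher and 1.92% lower. They were Apol9a (log2 fold change 3.58 ± 0.50 SE, limma adjusted p = 0.016) and Apol9b (4.04 ± 0.52 SE, limma adjusted p = 0.0146). At an unadjusted p under 0.05, 15 members (38.5%) were higher and 0 lower, against 10.2% and 11.3% of all genes. The median log2 fold change of the members was 1.20, against 0.02 over all genes, and 36 of 39 were positive. In 8 members all 3 carcinomas were above all glands (20.5%, against 10.7% of all genes): Usp18, Oas1a, Oas3, Mx1, Trim30a, Ifi44, Apol9a and Apol9b. Apol9a lost the call without gland 417_3 or 517_3, with adjusted p up to 0.0527, and Apol9b without carcinoma 3956 (0.0503). Both comparisons with the glands share the same 4 glands.

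**Figure D4:**
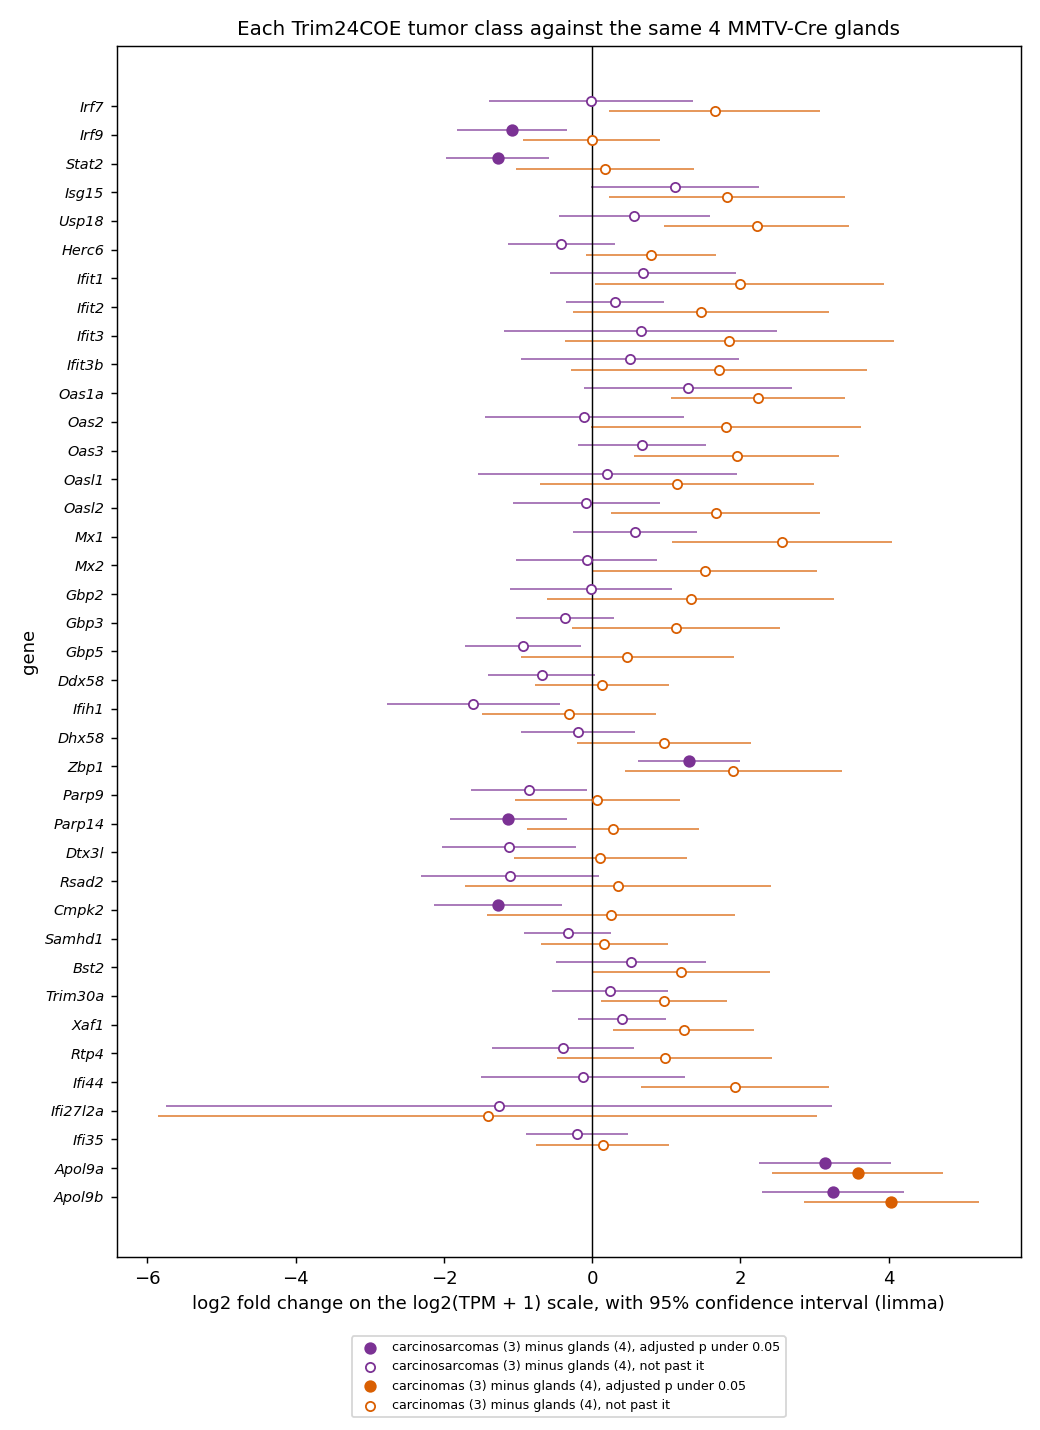
Log2 fold changes (log2(TPM + 1) scale) with 95% confidence intervals of the 39 members in carcinosarcomas (purple) and carcinomas (orange) against the same 4 glands; filled points have a limma adjusted p under 0.05. Apol9a and Apol9b are filled on the right for both classes, Zbp1 only for carcinosarcomas, and Stat2, Irf9, Parp14 and Cmpk2 are filled on the left for carcinosarcomas.

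Set directly against the carcinomas, the carcinosarcomas had 0 members past the threshold in limma's test, in either direction, with 0.113% of 14193 genes called higher and 0.585% lower. At an unadjusted p under 0.05, 10 members (25.6%) were lower and 0 higher, against 9.87% and 5.11% of all genes. The log2 fold change was negative in 38 of the 39 members, with a median of -1.21 against -0.10 over all genes, and the smallest adjusted p was 0.23 (Ifih1). In 5 members (Irf9, Stat2, Ifih1, Parp14 and Dtx3l, 12.8%) all carcinosarcomas were below all carcinomas and in 0 above, against 14.4% and 7.33% of all genes. Carcinoma 3956 lay within or below the range of the carcinosarcomas in 33 of the 39 members, but the share of all genes was not counted. The median ratio of TPM over the members was 3.93 for carcinoma 89 over 3956 and 3.34 for 273_5 over 3956, and the highest ratios were 12.1 (Oas2) and 22.8 (Rsad2). Without carcinoma 3956, 3 members passed as lower in carcinosarcomas: Mx1 (log2 fold change -2.76), Gbp3 (-2.29) and Gbp5 (-2.18), 7.69% of the members against 1.96% of all genes in that fit.

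The 2 carcinomas with high levels, 89 and 273_5, differed in which members were highest. In 10 members 273_5 was over 1.5 times 89, in 15 members 89 was over 1.5 times 273_5, and 14 members were within 1.5 times. Higher in 273_5 were all 4 IFIT members, both MX members, Usp18, Oasl1, Cmpk2 and Rsad2 (viperin, an antiviral radical-SAM enzyme), which was at 75.8 TPM in 273_5 and 8.36 TPM in 89, a ratio of 9.07. The 15 higher in 89 were the 3 transcription factors, Parp14, Dtx3l, Ifih1, Gbp3, Oasl2, Samhd1, Rtp4, Apol9a, Apol9b, Ifi27l2a, Oas2 and Oas3, the last at 21.7 TPM in 89 and 3.75 TPM in 273_5. Ifng was at 2.96 TPM in carcinoma 89 and 0.18 TPM in 273_5. The interferon gamma response genes Irf1 (186.7 and 67.9 TPM) and Cxcl9 (145.3 and 24.0 TPM) were higher in 89 than in 273_5, while Cxcl10 (63.6 and 126.3 TPM), Cxcl11 (17.6 and 149.9 TPM) and Irgm1 (170.6 and 240.7 TPM) were lower; the last pair was chosen after its values were seen. Of the 50 further interferon-stimulated genes counted below, 27 were over 1.5 times higher in 89, 7 were over 1.5 times higher in 273_5 and 16 were within 1.5 times. These are single libraries with no replicate check.

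**Figure D5:**
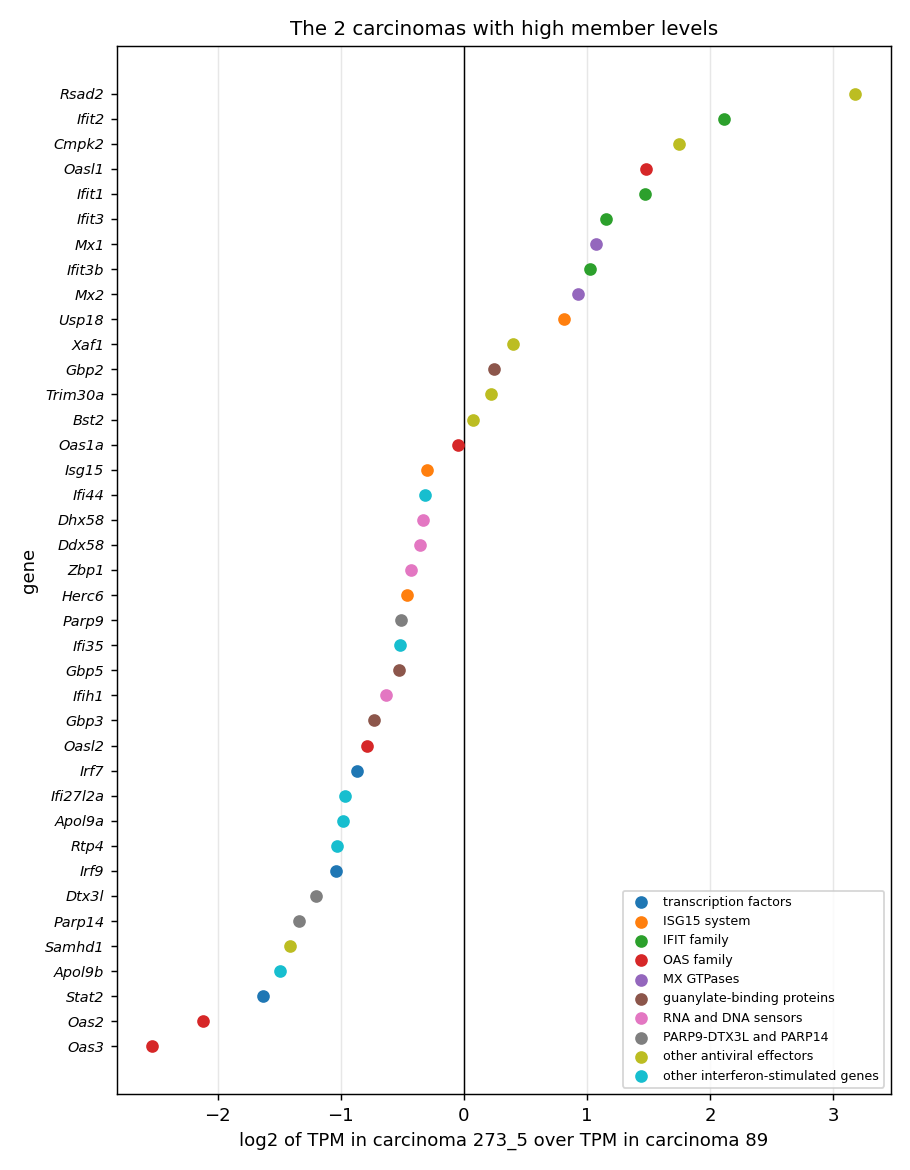
Log2 ratio of TPM in carcinoma 273_5 to carcinoma 89 for each of the 39 members, colored by role. Rsad2, Ifit2 and Cmpk2 lie farthest right and Oas3, Oas2 and Stat2 farthest left; each point rests on 1 library per tumor.

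The non-TRIM24 tumors, compared in limma with a batch term over all 15 libraries, had 1 member (2.56%) past the threshold against the glands, with 0.0477% of 16775 genes called higher and 0.0596% lower. This was Apol9a, at 293.3, 33.2 and 169.4 TPM in tumors 219, FVB001 and FVB002 (log2 fold change 5.21 ± 0.80 SE, limma adjusted p = 0.0275). Apol9b was at 197.0, 20.5 and 110.2 TPM and did not pass (log2 fold change 4.23, limma adjusted p = 0.119). These fits enter the repeat libraries as samples of their own, and with the libraries of a mouse linked by a correlation Apol9b passed (4.19, limma adjusted p = 0.0137). At an unadjusted p under 0.05, 21 members (53.8%) were higher and 0 lower, against 3.7% and 6.96% of all genes. The median log2 fold change was 2.22, against -0.21 over all genes. Apol9a lost the call without FVB002, 133, 417_3 or 517_3, with adjusted p up to 0.323.

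Tumors 219 and FVB002 both exceeded all 4 glands of batch 1 in 30 members, and FVB001 did so in 9. The share of all genes was not counted for these orders. All 3 were above all glands in 8 members (20.5%) and below in 0, against 7.62% and 23.9% of all genes. Isg15 was at 693.5, 69.8 and 451.6 TPM in 219, FVB001 and FVB002, and Irf7 was at 298.5, 36.1 and 178.4 TPM. Both 219 and FVB002 were above FVB001 in 38 of the 39 members, with median TPM ratios of 6.0 and 4.54, also without a share of all genes. In Ifi27l2a, the other member, FVB001 was the highest.

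Without FVB001, 6 members passed as higher than the glands, among them Isg15 (log2 fold change 4.88), Usp18 (4.45) and Mx1 (4.19), which was 15.4% of the members against 0.533% of all genes in that fit. Trim24 was at 5.34, 9.34 and 10.04 TPM in these tumors (log2 fold change against the glands -0.45, limma adjusted p = 0.649).

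The Trim24COE carcinomas set against the non-TRIM24 tumors gave 0 members past the threshold in limma's test with the batch term, where 0% of 16775 genes were called higher and 0.0179% lower. At an unadjusted p under 0.05, 0 members were higher and 0 lower, against 12.9% and 4.79% of all genes. Only Ifi27l2a (2.56% of the members) did not overlap, lower in all carcinomas, against 6.22% of all genes lower and 30.1% higher without overlap. The median log2 fold change of the members was -1.10, against 0.21 over all genes, but it was -0.22 with no batch term, -0.092 with the batch term and a correlation between libraries of a mouse, and 0.17 without carcinoma 3956. The batch term rests on the 2 repeated mice.

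Other genes of the pathway were counted against the glands with the 6 Trim24COE tumors. In that fit 7.96% of all genes were called higher and 9.13% lower. Single calls in the short lists below are therefore not read as a trait of the pathway. None of the 21 interferon genes reached the filter. Ifnb1 was at 2.49 and 2.84 TPM in the fat-poor glands 417_3 and 517_3 and at 0.28 TPM or less in every other library, and Ifng was at 3.13 and 3.06 TPM in these glands and at 0.50 TPM or less elsewhere except in carcinoma 89. Of 9 receptor and kinase genes, 1 was higher, the interferon gamma receptor chain Ifngr2 (log2 fold change 0.92, limma adjusted p = 0.026). Ifnar1 (0.59, limma adjusted p = 0.0714) and Ifnar2 (-0.12, limma adjusted p = 0.719) did not pass. Of 7 transcription factor genes beyond the members, 1 was higher, Irf5 (1.48), while Irf1 (-0.45, limma adjusted p = 0.523) did not pass.

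Of 13 nucleic acid sensing genes, 2 were higher, the endosomal RNA receptor Tlr7 (0.97) and the DNA-binding Ifi204 (1.46), and of 10 negative regulators 1, the phosphatase Ptpn6 (1.36). Of 50 further interferon-stimulated genes, Ifitm1 was higher (1.77, limma adjusted p = 0.0209) and Gbp6 lower (-2.43, limma adjusted p = 0.0336), with a median log2 fold change of -0.06. Cxcl9 (-0.45, limma adjusted p = 0.776) and Cxcl10 (-0.11, limma adjusted p = 0.959) did not pass.

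Some markers of immune cells also differed between the Trim24COE tumors and the glands. Of 10 macrophage markers, 7 were higher in the Trim24COE tumors (median log2 fold change 2.22), and their summed TPM was 1820 to 3480 in carcinosarcomas, 1190 to 2590 in carcinomas and 265 to 855 in glands. Among the 6 Trim24COE tumors, the 2 with the highest member levels, 89 and 273_5, had the lowest macrophage sums, 1190 and 1500 TPM. Of 6 pan-leukocyte markers, 4 were higher. With their mean as a covariate, 1 member stayed past the threshold, Apol9a (log2 fold change 3.82, limma adjusted p = 0.045), and 0.921% of all genes were called. Apol9b then had 2.94 (limma adjusted p = 0.0975). With the adipocyte markers as a covariate, Apol9a and Apol9b passed (3.73 and 4.02). Plasmacytoid dendritic cells are known for interferon production. The sum of their 6 markers was mostly Tcf4, a gene of many cell types, and is not used. Siglech, the most specific of the 6, was at 0.59 to 0.89 TPM in carcinosarcomas, 0.15 to 2.16 TPM in carcinomas, 1.14 to 2.6 TPM in glands and 0.56 to 1.05 TPM in non-TRIM24 tumors. T cell markers summed to 4.88 to 49.3 TPM in Trim24COE tumors and 40.2 to 66.2 TPM in glands. Whether immune cells carry the members' signal was not tested.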

How the data were processed

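RNA-seq of mouse mammary tumors and glands was analysed in 15 libraries of 13 mice. The deposited values are TPM, which the authors, per the study's methods, made with STAR on GRCm38 and RSEM; the submitters' processing notes also name TopHat and Cufflinks, and the labels and the methods name different RNA kits. TPM keeps no depth, so depth is unknown and no counting error was given. Genes were kept where the number of libraries at 1 TPM or above reached the size of the smaller group, and were tested on log2(TPM + 1), so fold changes of low genes are understated. Tests used limma 3.58.1 in R 4.3.3 (eBayes with trend), two-sided, with Benjamini-Hochberg adjustment over all genes tested and a threshold of 0.05. Comparisons within batch 1 used only the groups compared and the first library of each mouse. For the non-TRIM24 tumors, every library entered 1 fit with sequencing batch as a term, the repeats included. The script was tested on simulated data. For 13 named members an exact permutation test was run in scipy 1.17.1. All 39 member symbols were found once. The members and lists were chosen with earlier results of these data known, so nothing here is independent of them. Values in every library are given for members past the threshold in 6 tumors against 4 glands and for the member of each role with the highest mean TPM over the 10 first libraries of batch 1. Stat2, Rsad2, Oas3 and others given by range or fold change fall outside that rule. Promoters were matched by symbol to RefSeq windows on GRCm38.p6 and gene positions to a GENCODE annotation of GRCm38. Within batch 1, samples are separate mice of each label, and p-values measure the spread between them. In the non-TRIM24 fits the repeat libraries entered as samples, so those p-values also rest on the spread between libraries of a mouse. The authors' count-based tests were not used here. Alternatives were another pseudocount (0.1), no filter, a filter of 5 TPM, median-of-ratios scaling, quantile normalization, a shared spread, repeat means, marker covariates, no batch term, a mouse correlation and leaving out each mouse.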

Additional observations from a re-analysis of the deposited data

Results flagged for a closer look

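No member had a library far from the rest of its group by Dixon's test on log2(TPM + 1), in 78 tests over the 4 glands and the 6 Trim24COE tumors, and no member differed past the threshold between the carcinosarcomas and the carcinomas.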

How the results depend on the processing

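The median log2 fold change of the members changed sign in 2 comparisons. Between carcinomas and non-TRIM24 tumors it was -1.10, and 0.17 without carcinoma 3956. It was -0.22 with no batch term and -0.092 with a batch term and a mouse correlation. Between carcinosarcomas and glands it was -0.08, and 0.10 with median-of-ratios scaling, 0.11 with quantile normalization, 0.11 without 567, 0.19 without 897 and 0.08 without 392, so it gives no direction. Median-of-ratios scaling moved the median of all genes there from -0.12 to 0.07. Without any filter on low values, 2 members passed in the 6 tumors against the glands, 3 in carcinosarcomas, 0 in carcinomas and 0 in non-TRIM24 tumors, with 4.76%, 4.15%, 0.119% and 0.0475% of all genes. With adipocyte markers as a covariate 2 passed in the 6 tumors, and with leukocyte markers 1, with 7.3% and 0.921% of all genes. With the spread shared over batch 1, 3 passed in carcinosarcomas and 4 in carcinomas, with 20.7% and 7.29% of all genes. In the non-TRIM24 tumors against the glands, 0 passed at a filter of 5 TPM, 8 with no batch term (20.5%, against 11.1% of all genes) and 2 with a mouse correlation (5.13% against 0.709%). Without the fat-rich glands, an alternative added after seeing the data, 11 passed in carcinosarcomas (28.2%, against 37.6% of all genes) and 4 in carcinomas (10.3% against 7.77%), and 10 members did not overlap between 6 tumors and 2 glands (25.6% against 36.5%). Without the fat-poor glands, also added later, 4 did not overlap (10.3% against 37.5%). Leaving out 1 mouse at a time gave 2 to 3 members in the 6 tumors against the glands (11.3% to 19.6% of all genes). It gave 2 to 7 in carcinosarcomas (8.14% to 20.9% of all genes) and 1 to 4 in carcinomas (0.475% to 3.51%). Between the classes it gave 0 to 3 (0% to 1.96% of all genes) and in non-TRIM24 tumors 0 to 6 (0.0422% to 0.533%). Without overlap there were 2 to 6 members (15.5% to 19.4% of all genes). The count was 2 in the 6 tumors without 64, 89, 273_5, 133, 417_3 or 517_3 (5.13%, against 11.3% to 19.6% of all genes). It was 2 in carcinosarcomas without 64 or 897 (5.13%, against 8.14% and 13.2% of all genes). In carcinomas it was 4 without 3956 (10.3%, against 0.603% of all genes). There it was 1 without 417_3 or 517_3 (2.56%, against 0.579% and 0.475%). In non-TRIM24 tumors it was 6 without FVB001 (15.4%, against 0.533% of all genes). Without overlap it was 6 without 392 (15.4% against 17.7% of all genes) and 4 without 897 (10.3% against 16.1%). The medians of the members' log2 fold changes then ran from 0.34 to 0.89, -0.36 to 0.19, 0.84 to 1.85, -1.79 to -0.80, 1.82 to 2.90 and, for carcinomas against non-TRIM24 tumors, -1.85 to 0.17. The cause of these shifts was not tested. No paired analysis was possible because the groups share no replicate numbers. Apol9a and Apol9b kept their call in all 10 such fits of the 6 tumors. With 3 or 4 mice a group and no counts, small differences were not detectable.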

Other observations

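Some members separated the fat-poor from the fat-rich glands. The share of all genes that did so was not counted, so the counts are not read as a trait of the members. The 9 members Irf9, Stat2, Oasl1, Ddx58, Ifih1, Parp9, Parp14, Dtx3l and Ifi44 were higher in both fat-poor glands than in both fat-rich glands, and the 7 members Ifit3, Ifit3b, Oas2, Gbp2, Gbp3, Xaf1 and Ifi27l2a were lower. Irf1 was at 182.5 and 160.1 TPM and Cxcl10 at 143.2 and 131.2 TPM in the fat-poor glands 417_3 and 517_3, against 57.3 and 56.5 TPM of Irf1 and 3.60 and 9.82 TPM of Cxcl10 in the fat-rich glands 133 and 392. Among the carcinosarcomas, 64 was the highest in 29 of the 39 members, and over the 6 Trim24COE tumors 897 was the lowest in 24. For these orders too the share of all genes was not counted. The 17 members with the response element core in their promoter window had a median log2 fold change of 0.86 in the Trim24COE tumors against the glands. The 12 members with a window but no match had 0.43. For the motif TTCNNNGAA the order was the other way, 0.41 in the 6 members with it and 0.68 in the 23 without. Near-identical pairs such as Apol9a and Apol9b were counted as separate members. Neither difference was tested.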
